A study of Homo sapiens with 12 samples.

Results

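The members of a group of miRNAs linked to mesenchymal cells, namely hsa-miR-143, hsa-miR-145, hsa-miR-199a-5p, hsa-miR-199a-3p, hsa-miR-199b-5p, hsa-miR-214, hsa-miR-140-3p and hsa-miR-140-5p, were followed in osteosarcoma cells with and without forced CD99. They were chosen by name, and all 8 were found among the 851 human miRNAs of the deposited value table. Expression was measured on 12 one-colour Agilent human miRNA arrays. The samples were Saos-2, a human osteosarcoma cell line that served as the parental control, and Sa/CD99, Saos-2 cells stably transfected with CD99, a cell surface glycoprotein. Both were collected at day 0, after routine culture in IMDM with serum, and at days 7 and 14 in an osteogenic medium, IMDM with less serum plus β-glycerophosphate and ascorbic acid. This gave 6 groups of 2 samples: Saos-2 at day 0, at day 7 and at day 14, each with replicates 1 and 2, and Sa/CD99 at day 0, at day 7 and at day 14, each with the clones Sa/CD99wt22 and Sa/CD99wt36, called clones 22 and 36 below. Each clone is a single transfected cell line that went through neomycin selection, and the labels do not say what a Saos-2 replicate number stands for. Nothing says that replicates came from separate cultures, so p-values measure only the spread between these samples. The fit pooled this spread over the 6 groups, and the part from Sa/CD99 is that between clones.

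These miRNAs are known from connective tissue. miR-143 and miR-145 lie side by side within the lncRNA gene CARMN and are best known from smooth muscle and fibroblasts; the genes MIR199A2 and MIR214 lie within DNM3OS, a non-coding RNA gene needed for normal skeletal growth in mice; and miR-140 lies within WWP2 and is a cartilage miRNA. In each case both arms of a hairpin can yield a mature miRNA, whose seed, the bases near its 5′ end, does most of the pairing with targets.

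The mature sequences are printed so that members of one precursor or family can be told apart by seed. They are RNA from RefSeq for GRCh38.p14, 5′ to 3′, with the seed, bases 2 to 8, in capitals. The array names miR-143, miR-145 and miR-214 stand for the arms now called miR-143-3p, miR-145-5p and miR-214-3p. RefSeq entries matched 7 of the 8 members, which leaves hsa-miR-199b-5p by name.
hsa-miR-143: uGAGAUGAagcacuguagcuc
hsa-miR-145: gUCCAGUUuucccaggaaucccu
hsa-miR-199a-5p: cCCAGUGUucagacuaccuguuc
hsa-miR-199a-3p: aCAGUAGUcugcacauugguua
hsa-miR-214: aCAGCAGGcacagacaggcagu
hsa-miR-140-3p: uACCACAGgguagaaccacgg
hsa-miR-140-5p: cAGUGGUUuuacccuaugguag
The 7 sequences held 7 different seeds, so no members printed here share one. miR-145 therefore differs in seed from its neighbour miR-143, and miR-214 from both arms of miR-199a. The sequence of hsa-miR-199a-3p is identical to that of hsa-miR-199b-3p, so its signal cannot be assigned to MIR199A1, MIR199A2 or MIR199B.

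The loci fall on 5 chromosomes. On GRCh38.p14, MIR143 lies at chr5:149428918-149429023 and MIR145 at chr5:149430646-149430733, both on the plus strand within CARMN, with 1622 bases between them. MIR214 at chr1:172138798-172138907 and MIR199A2 at chr1:172144535-172144644 lie on the minus strand within DNM3OS, 5627 bases apart, and opposite to the coding gene DNM3 around them. MIR199A1 at chr19:10817426-10817496 and MIR199B at chr9:128244721-128244830 lie opposite to DNM2 and DNM1. MIR140 at chr16:69933081-69933180 lies within WWP2 on the same strand.

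The value table and the scanner files do not give the arrays the same sample names. When detected and undetected miRNAs were compared over 847 shared names, every one of the 12 table columns had the pattern of exactly 1 scanner array, and 12 of 12 of these arrays were filed under a different sample. Values below follow the column labels of the value table, and the members called in each comparison are also counted with the same values under the samples the matching arrays were filed under. Values are normalized log2 values, and a miRNA at the minimum of its column, between -3.32 and -3.004, is undetected.

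Array brightness moved with day. By the column labels, the 4 day 0 columns belonged to the arrays of lowest total miRNA signal, with 9132 and 8594 in Sa/CD99 and 9537 and 11371 in Saos-2. The later columns had 40863 and 40630 in Sa/CD99 at day 7, 57087 and 62236 in Sa/CD99 at day 14, 25232 and 56553 in Saos-2 at day 7 and 39910 and 46314 in Saos-2 at day 14. From 133 to 158 miRNAs were detected at day 0 and from 158 to 229 later. The arrays lay on 2 slides with 1 scan date. By the column labels slide 1 held both cell types at day 0 and Saos-2 at day 7, and slide 2 held Sa/CD99 at day 7 and both cell types at day 14. Slide and cell type thus cannot be told apart at day 7, whereas the comparisons at day 0 and at day 14, Saos-2 from day 0 to day 7 and Sa/CD99 from day 7 to day 14 each lie within a slide. By the filed samples, slide 1 held Sa/CD99 alone and slide 2 Saos-2 alone. The small number of arrays, 2 in each group, limits the precision.

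**Figure D1:**
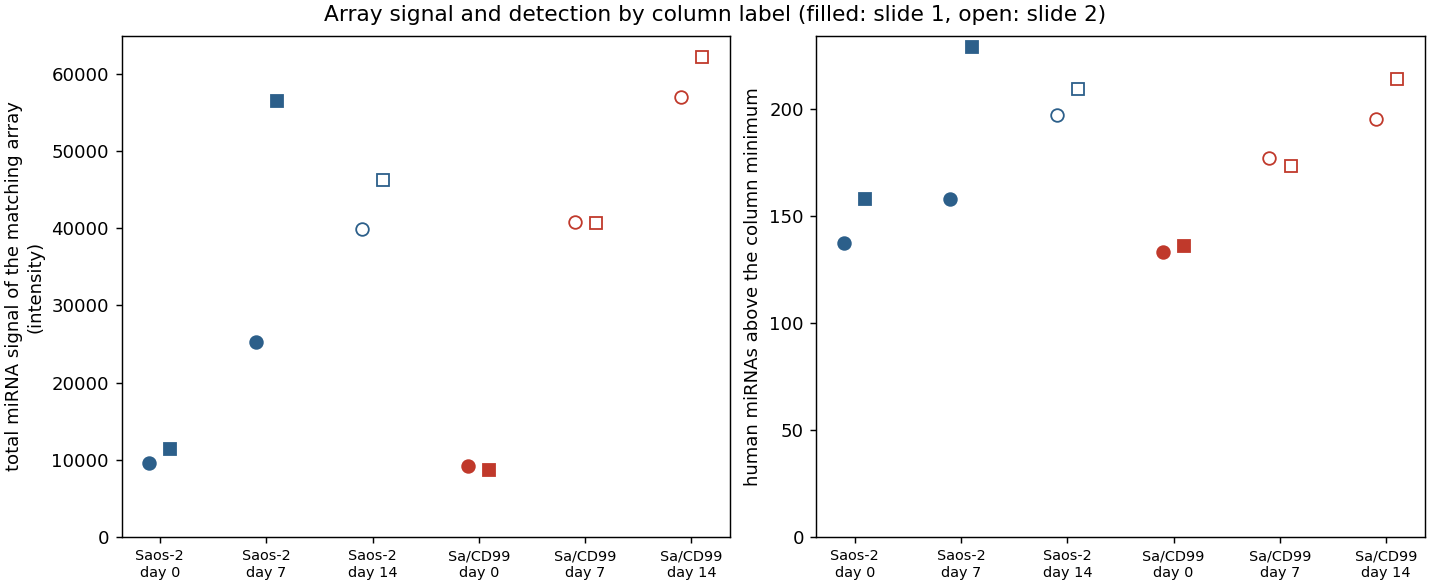
Total miRNA signal of the matching scanner array (left, intensity) and number of human miRNAs above the column minimum (right) for the 12 columns of the value table, by column label. Circles are replicate 1 or clone 22, squares replicate 2 or clone 36, filled symbols slide 1 and open symbols slide 2. The 4 day 0 arrays lie between 8594 and 11371 and all others at 25232 or more.

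Of the 8 members, 5 were detected in all 12 columns, as were 100 of all 851 miRNAs. Of the other members, 1 was detected in 7 columns and 2 in none. The 5 were miR-145, miR-199a-5p, miR-199a-3p, miR-214 and miR-140-3p, miR-140-5p was seen in 7 columns, and miR-143 and miR-199b-5p were at the minimum throughout. The detection flag of the scanner gave the same number for each member, which is no separate check, since the arrays were matched to the columns by this flag. Each member was read by 2 probes with 8 spots each, so that 192 spots were read over the 12 arrays. For miR-199b-5p 0 of 192 spots were well above background, and for miR-143 3 of 192 were. By contrast, all 192 spots of miR-214 and of miR-199a-3p were well above background, against 173 for miR-199a-5p, 171 for miR-145, 112 for miR-140-3p and 53 for miR-140-5p. The opposite arms on the array, miR-143*, miR-145* and miR-214*, were at the minimum in all 12 columns. Of the neighbours miR-143 and miR-145, therefore, only miR-145 was detected, and the 5p arm of the miR-199b hairpin was not.

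miR-145, the smooth muscle and fibroblast miRNA, is described first because it had the only call among the members. In Saos-2 its normalized log2 values were 6.27 and 5.59 at day 0, 4.81 and 3.37 at day 7 and 4.75 and 3.70 at day 14. In Sa/CD99 they were 6.27 and 6.15 at day 0, 5.64 and 5.24 at day 7 and 4.24 and 3.93 at day 14. In Saos-2 both day 0 values lay above all 4 later values, which overlapped each other, and in Sa/CD99 the 3 days did not overlap. Ordered by mean, Sa/CD99 at day 0 (6.21 ± 0.083, SD, n = 2) came before Saos-2 at day 0 (5.93 ± 0.48) and Sa/CD99 at day 7 (5.44 ± 0.28). Saos-2 at day 14 (4.22 ± 0.74), Saos-2 at day 7 (4.09 ± 1.02) and Sa/CD99 at day 14 (4.08 ± 0.22) followed. Neighbours in this order overlapped, except Sa/CD99 at day 7, both of whose values lay above those of Saos-2 at day 14.

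From day 0 to day 7 in Saos-2, miR-145 fell by 1.84 on the log2 scale, which is 3.58-fold, with a 95% interval from -3.14 to -0.54 (limma adjusted p = 0.0350). In bulk samples such as these, fewer cells that express a miRNA and less of it per cell cannot be told apart. The step from day 0 to day 7 also spans the change of medium and serum, and time and medium cannot be told apart in it. miR-145 was the 1 of 6 tested members called at an adjusted p of at most 0.05, a threshold that 36.5% of all 219 tested miRNAs passed, 47 of them higher and 33 lower at day 7. Over all 219 miRNAs the median log2 difference was -0.61, and over the 6 members -0.55. Both probes of miR-145 gave a lower mean at day 7 on the scanner arrays with the labels of the table, by log2 differences of -1.81 and -2.32. The total signal of the arrays moved with this result, from 9537 and 11371 to 25232 and 56553, and its part in the result was not tested. With the columns centred on the miRNAs detected in all of them the difference was -1.34 (limma adjusted p = 0.117), and with 75th percentile scaling of the scanner arrays -1.08 (limma adjusted p = 0.0992), so that the call was lost with either scaling. Centring moved the median of all miRNAs to -0.11, and the calls were then 48 higher and 21 lower, against 68 higher and 15 lower with the 75th percentile. Leaving out 1 column in turn gave differences from -2.56 to -1.12 and limma adjusted p from 0.00689 to 0.163, the lowest without Saos-2 day 7 replicate 1 and the highest without Saos-2 day 7 replicate 2. The call was kept without Saos-2 day 7 replicate 1 or either Saos-2 column of day 14, and was lost without any other of the 12 columns. Under the samples the arrays were filed under, the same values gave 0.29 (limma adjusted p = 1).

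**Figure D2:**
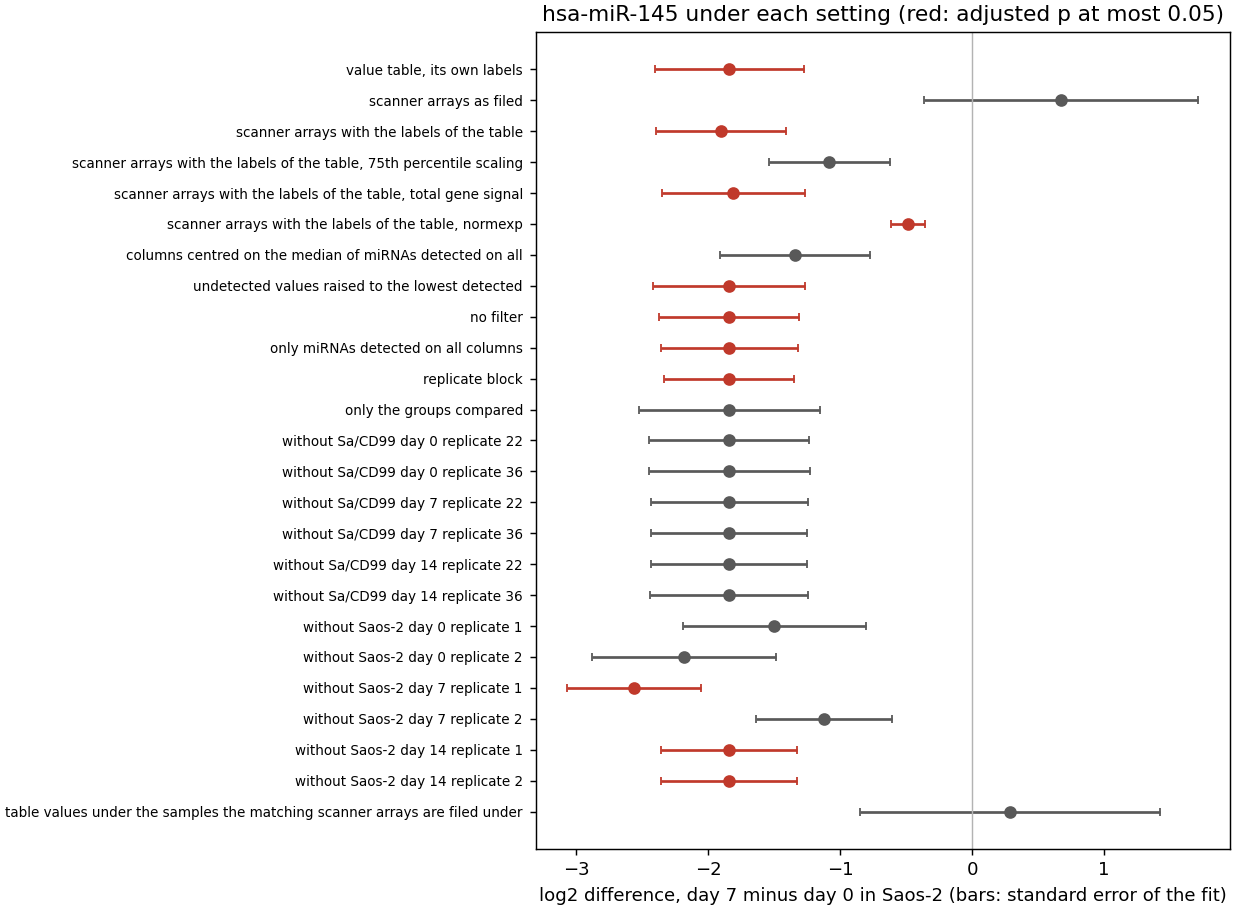
Log2 difference of hsa-miR-145, day 7 minus day 0 in Saos-2, under each processing setting, with the standard error of the fit as bars. Red marks an adjusted p of at most 0.05. By the column labels of the value table the difference lies between -2.56 and -0.49 in every setting, and under the filed samples it is 0.29 or 0.68.

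The other steps in time gave no call for miR-145. From day 7 to day 14 in Sa/CD99, where the 2 days did not overlap, the log2 difference was -1.35 with a 95% interval from -2.66 to -0.051 (limma adjusted p = 0.120). From day 0 to day 7 in Sa/CD99 it was -0.77 (limma adjusted p = 0.317), and from day 7 to day 14 in Saos-2 it was 0.13 (limma adjusted p = 0.984). The step from day 7 to day 14 in Sa/CD99 was called in a fit of those 2 groups alone (limma adjusted p = 0.0349) and without Saos-2 day 7 replicate 2 (limma adjusted p = 0.0476).

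Set against all tested miRNAs, the members stood as follows. At day 0 limma called 0 of 6 tested members against 2.74% of 219 miRNAs, at day 7 0 of 6 against 3.20% and at day 14 0 of 6 against 9.13%. At an unadjusted p under 0.05 there were 0, 1 and 0 members, the 1 being miR-145. Over all days 0 of 6 members were called at an adjusted p of at most 0.05, against 2.74%, with 0 at an unadjusted p under 0.05. In Sa/CD99 0 of 6 were called from day 0 to day 7 against 32.0%, and 0 of 6 from day 7 to day 14 against 19.6%, with 0 and 1 members at an unadjusted p under 0.05. In Saos-2 from day 7 to day 14 limma called 0 of 6 members and 0% of all miRNAs, with 0 members at an unadjusted p under 0.05. For the interaction of cell type and day it called 0 of 6 against 1.83%, again with 0 members at an unadjusted p under 0.05. The comparisons share columns and are not independent of each other. The other 2 members, miR-143 and miR-199b-5p, were undetected and not tested.

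Under the samples the matching arrays were filed under, limma called 0 of 6 tested members in each of the 9 comparisons, with 0 at an unadjusted p under 0.05. The background there was 2.82% of 213 miRNAs at day 0, 0% at day 7, 4.23% at day 14 and 35.7% over all days. It was 0% for both steps in Saos-2, 0% and 0.469% for the steps in Sa/CD99 and 0% for the interaction. So filed, miR-145 had 4.49 ± 0.36 in Saos-2 at day 0, 4.78 ± 1.21 at day 7 and 4.47 ± 1.09 at day 14 (SD, n = 2). In Sa/CD99 it had 5.54 ± 1.03, 4.82 ± 2.05 and 5.87 ± 0.40. From day 0 to day 7 the log2 difference of miR-145 as filed was 0.29 in Saos-2 and -0.72 in Sa/CD99, and from day 7 to day 14 it was -0.31 and 1.05. None of these 4 was called, and replicates of miR-145 as filed lay up to 2.90 apart.

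Between the cell types, miR-145 by the column labels differed most at day 7, where both Sa/CD99 values lay above both Saos-2 values. The log2 difference was 1.35 with a 95% interval from 0.047 to 2.65 (limma adjusted p = 0.656), below the call rule of the study's methods, an unadjusted p of at most 0.01 with at least 1.4-fold. Without Saos-2 day 7 replicate 1 it was 2.07 and met this rule, with a limma adjusted p of 0.0682. At day 0 it was 0.28 and at day 14 -0.14, and the groups overlapped on both days. The sign at day 14 turned to 0.25 with centred columns. Under the filed samples the differences were 1.05, 0.037 and 1.399 at days 0, 7 and 14, with day 7 the smallest, and none was called. The test of whether the cell type difference changed with day gave, by the column labels, a limma adjusted p of 0.766, so a difference between days was not shown.

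**Figure D3:**
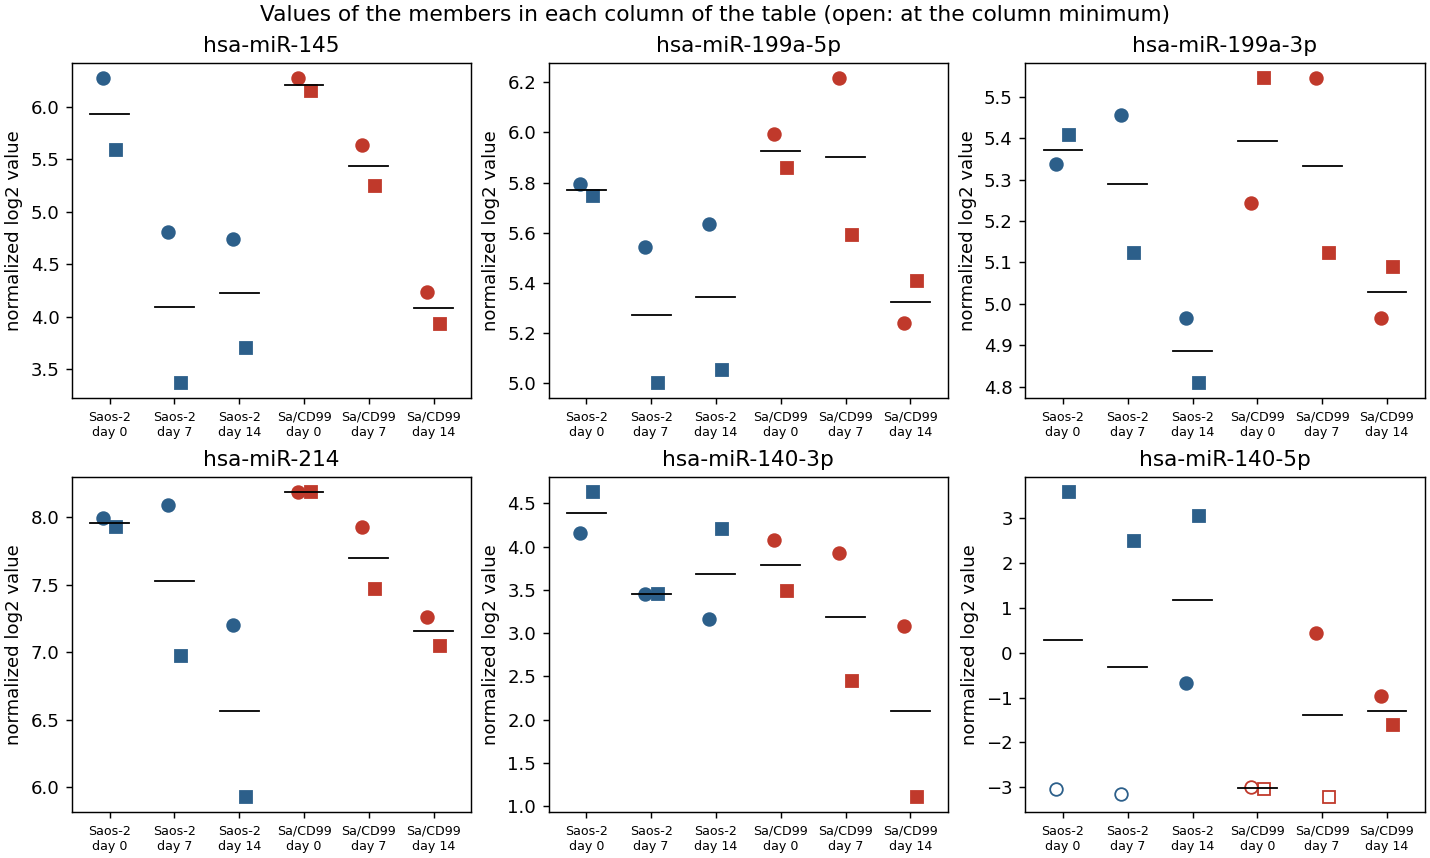
Normalized log2 values of the 6 detected members in all 12 columns, blue for Saos-2 and red for Sa/CD99. Circles are replicate 1 or clone 22, squares replicate 2 or clone 36, open symbols are values at the column minimum, and lines are group means. miR-145 is at 5.59 or more in all 4 day 0 columns and at 4.75 or less in all 4 day 14 columns.

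miR-214 is encoded in DNM3OS, and the arms of miR-199a are encoded there by MIR199A2 and also by MIR199A1 on chromosome 19. miR-214 had values of 7.99 and 7.93 at day 0, 8.09 and 6.97 at day 7 and 7.20 and 5.93 at day 14 in Saos-2. In Sa/CD99 it had 8.19 and 8.19 at day 0, 7.93 and 7.47 at day 7 and 7.26 and 7.05 at day 14. The day 14 values lay below the day 0 values in both cell types, while at day 7 Saos-2 spanned the range of its day 0 values.

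miR-199a-5p had values of 5.79 and 5.75 at day 0, 5.54 and 5.00 at day 7 and 5.64 and 5.05 at day 14 in Saos-2. In Sa/CD99 it had 5.995 and 5.86 at day 0, 6.22 and 5.59 at day 7 and 5.24 and 5.41 at day 14. Both Saos-2 values of day 0 lay above all 4 later ones, and in Sa/CD99 the day 14 values lay below the 4 earlier ones.

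miR-199a-3p varied least among the 5 members detected throughout, with a range of 0.735 over the 12 columns. In Saos-2 it had 5.34 and 5.41 at day 0, 5.46 and 5.12 at day 7 and 4.97 and 4.81 at day 14. In Sa/CD99 it had 5.24 and 5.54 at day 0, 5.54 and 5.12 at day 7 and 4.97 and 5.09 at day 14. All 4 day 14 values lay below all 8 earlier values. The same held for the column medians of the 100 miRNAs detected in all columns, 4.45 to 5.01 at day 14 against 5.05 to 5.65 before. The day 14 values of miR-214 and miR-199a-5p given above belong to the same columns.

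None of these 3 miRNAs was called in any of the 9 comparisons by the column labels. From day 0 to day 7 the log2 difference of miR-214 was -0.43 in Saos-2 and -0.49 in Sa/CD99, with limma adjusted p of 0.490 and 0.499. From day 7 to day 14 it was -0.97 in Saos-2, with a 95% interval from -2.17 to 0.23 (limma adjusted p = 0.552), and -0.54 in Sa/CD99 (limma adjusted p = 0.472). The value in Saos-2 was -1.60 without Saos-2 day 14 replicate 1 and -0.33 without replicate 2. For miR-199a-5p the 4 steps in time lay between -0.58 and 0.07 and for miR-199a-3p between -0.40 and -0.060. The sign turned with centred columns for each of the 3 in Sa/CD99 from day 7 to day 14, where miR-214 went from -0.54 to 0.11, miR-199a-5p from -0.58 to 0.077 and miR-199a-3p from -0.31 to 0.35. It also turned so from day 0 to day 7 for miR-199a-3p in both cell types, for miR-214 in Saos-2 and for miR-199a-5p in Sa/CD99.

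Between cell types the 95% interval of each difference of these 3 miRNAs by the column labels held 0. miR-214 was at 0.23, 0.17 and 0.59 on the log2 scale at days 0, 7 and 14, Sa/CD99 minus Saos-2, and its 2 Sa/CD99 values at day 0 lay above both Saos-2 values. The day 14 difference of miR-214 was 1.23 without Saos-2 day 14 replicate 1 and turned to -0.046 without replicate 2. miR-199a-5p was at 0.16, 0.63 and -0.02, and both Sa/CD99 values lay above both Saos-2 values at day 0 and at day 7. On the scanner arrays with the labels of the table, its 2 probes differed in sign at day 0. Probe 1 gave 0.13, 0.54 and 0.056 at days 0, 7 and 14, and probe 2 gave -0.40, 1.07 and 0.038. miR-199a-3p was at 0.02, 0.04 and 0.14. The smallest limma adjusted p among the 9 fitted differences of the 3 miRNAs was 0.548. Under the filed samples miR-214 was at 0.91, -0.0019 and 1.36 at days 0, 7 and 14, miR-199a-5p at 0.33, -0.42 and 0.48 and miR-199a-3p at 0.38, -0.088 and 0.51. All 3 thus turned negative at day 7 and lay higher at days 0 and 14 than by the column labels, and none was called (smallest limma adjusted p = 0.244).

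miR-140-3p had values of 4.15 and 4.63 at day 0, 3.45 and 3.45 at day 7 and 3.16 and 4.20 at day 14 in Saos-2. In Sa/CD99 it had 4.07 and 3.49 at day 0, 3.93 and 2.44 at day 7 and 3.09 and 1.11 at day 14. The Sa/CD99 values lay below the Saos-2 values at day 0 and at day 14 and on either side of them at day 7. Clone 36 was below clone 22 on each day, by the widest margin at day 14.

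By the column labels the largest cell type difference of miR-140-3p was at day 14, with a log2 difference of -1.58, Sa/CD99 minus Saos-2, and a 95% interval from -3.32 to 0.15 (limma adjusted p = 0.306). At day 0 it was -0.61, at day 7 -0.26 and over all days -0.82, and none met its call rule. The day 14 difference lay between -2.57, without Sa/CD99 day 14 clone 22, and -0.069, with normexp background correction, and it was -0.60 without clone 36 of that day. Under the filed samples the differences were positive, at 0.63, 1.28 and 0.74 at days 0, 7 and 14 and 0.89 over all days, and none was called. By the column labels the steps in time were between -1.09 and 0.24, with a smallest limma adjusted p of 0.311, and both steps in Sa/CD99 turned positive with 75th percentile scaling, to 0.21.

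miR-140-5p, the other arm of the same hairpin, was detected in 7 columns. In Saos-2 it was at the minimum in replicate 1 and at 3.59 in replicate 2 at day 0, at the minimum and at 2.50 at day 7, and at -0.68 and 3.05 at day 14. In Sa/CD99 it was at the minimum in both clones at day 0, at 0.45 in clone 22 and at the minimum in clone 36 at day 7, and at -0.97 and -1.61 at day 14. Saos-2 replicate 2 thus held the 3 highest values on the 3 days.

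No fold is given for miR-140-5p against Sa/CD99 at day 0, where it was undetected, since the lowest detected values there, 2.395 and 2.004, lay above the means of all other groups. Values such as the -0.97 and -1.61 of day 14 lie below those limits. The fit, which takes undetected values at the column minimum, gave an interval from -8.44 to 3.49 for its log2 difference at day 14, Sa/CD99 minus Saos-2, and called it in no comparison. The other arm, miR-140-3p, was detected in all 5 columns without miR-140-5p. Different probes read the 2 arms, so their levels cannot be compared.

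**Figure D4:**
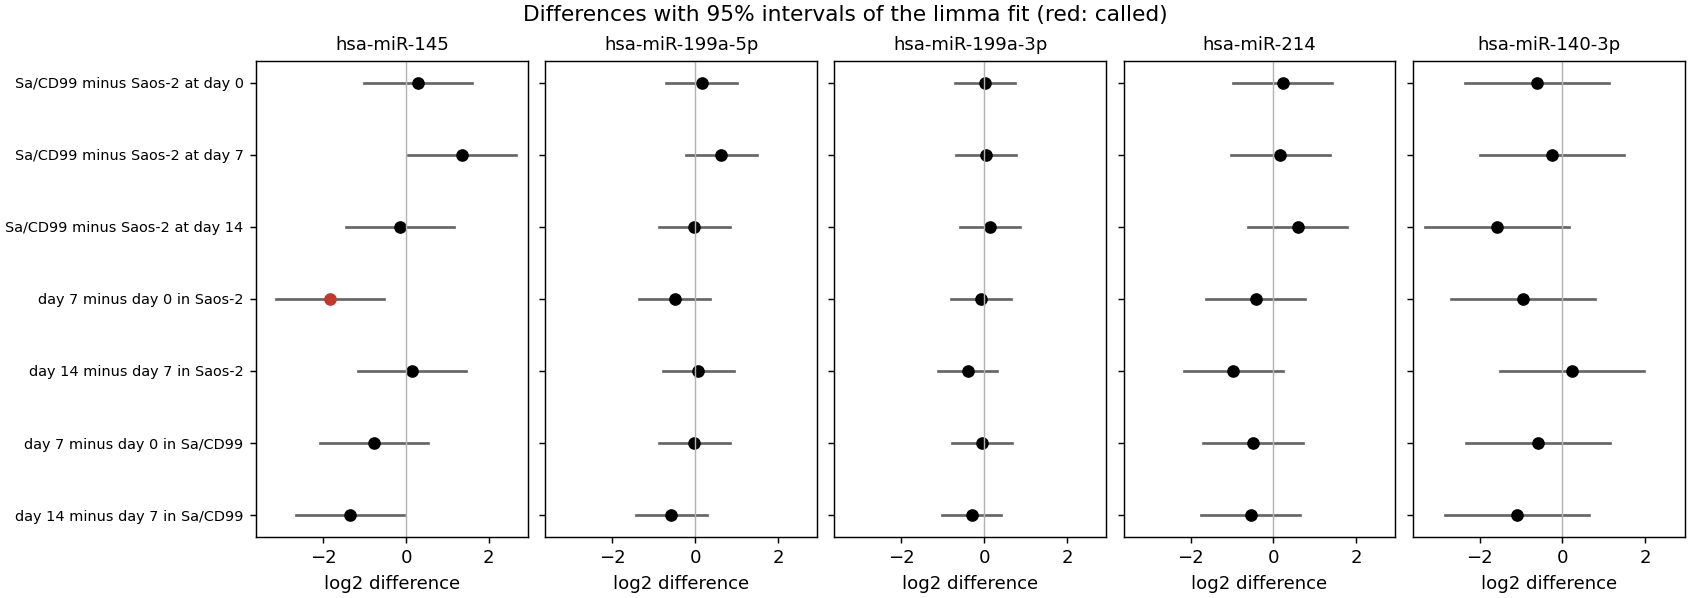
Log2 differences of the 5 members detected in all columns, for the 3 cell type comparisons and the 4 steps in time, as points with the 95% interval of the limma fit. Red marks a call. miR-145 from day 0 to day 7 in Saos-2, at -1.84, is the only red point.

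The members that were detected in all columns varied together in part, as they did with other miRNAs. Their median Pearson's r with the 95 others detected in all columns was 0.72 for miR-145 and 0.54 to 0.59 for the rest. Across the 12 columns, Pearson's r was 0.89 between miR-145 and miR-199a-5p, 0.86 between miR-199a-3p and miR-214, 0.83 between miR-145 and miR-214, 0.80 between miR-199a-5p and miR-214, 0.73 between the arms of miR-199a and 0.69 between miR-145 and miR-199a-3p. Over the 8 columns of days 7 and 14 these were 0.92, 0.86, 0.73, 0.71, 0.71 and 0.63. miR-140-3p had r between 0.23 and 0.41 with the other 4 over 12 columns and between -0.097 and 0.11 over 8. The values over 12 columns do not depend on which record labels them, and the columns share clones, slides, a common normalization and the day 0 difference in total signal.

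Outside the members, the miRNAs most like each one were found among the 95 others detected in all 12 columns, whose median r with it was 0.72 for miR-145 and between 0.54 and 0.59 for the others. For miR-145 they were miR-1826 (r = 0.95) and miR-365 (r = 0.95). For miR-199a-5p they were miR-455-3p (r = 0.87) and miR-191* (r = 0.84), and for miR-199a-3p let-7b and miR-224 (r = 0.83 for both). miR-214 was most like miR-224 (r = 0.89) and miR-455-3p (r = 0.87), and miR-140-3p most like miR-30b (r = 0.92) and miR-301a (r = 0.87). For miR-140-5p, over the 7 columns in which it was detected and among 109 miRNAs, they were miR-27a (r = 0.997) and miR-20a (r = 0.98).

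Of 15 other miRNAs common in stromal and mesenchymal cells, 9 were detected in all columns, as were 100 of all 851 miRNAs. Of the 15, 12 were detected in at least 1 column, and miR-152, miR-218 and miR-335 in none. Of the 11 tested, 3 were lower at day 7 than at day 0 in Saos-2, namely miR-125b, miR-221 and miR-222, and 2 in Sa/CD99, namely miR-221 and miR-222, where 33 and 24 of all 219 miRNAs were called lower. In the other 7 comparisons 0 of 11 were called. miR-221 had values of 6.85 and 6.97 at day 0 and 5.64 and 5.34 at day 7 in Saos-2, and 6.80 and 6.91 against 5.66 and 6.05 in Sa/CD99. It fell by 1.43 on the log2 scale in Saos-2 (limma adjusted p = 0.00623) and was 2.001-fold lower in Sa/CD99 (limma adjusted p = 0.0361). With the columns centred, 1 of these 5 calls remained, that of miR-222 in Saos-2 (limma adjusted p = 0.00182), in which 1 of the 2 day 7 values was at the column minimum. All 5 were called on the scanner arrays with the labels of the table, processed by rma or with 75th percentile scaling. With total gene signal miR-222 in Sa/CD99 was not called (limma adjusted p = 0.0719), and with normexp neither it (limma adjusted p = 0.1999) nor miR-125b in Saos-2 (limma adjusted p = 0.412) was. Over the list, the rma values gave 5 of 11 lower in Saos-2 and 6 of 11 in Sa/CD99 from day 0 to day 7. Of all 219 miRNAs, 48 and 45 were then called lower. They also gave 2 of 11 lower in Sa/CD99 from day 7 to day 14, against 8 of 219. For the step from day 0 to day 7, normexp gave 5 of 11 lower in Saos-2 and 3 of 11 in Sa/CD99, against 44 and 42 of 219. With 75th percentile scaling 3 of 11 were lower in each cell type, against 15 of 219 in Saos-2 and 23 in Sa/CD99. In Saos-2 1 of 11 was higher, against 68 of 219. Total gene signal gave 3 of 11 lower in Saos-2 and 1 of 11 in Sa/CD99, against 32 and 21 of 219. Under the filed samples the same values gave 0 of 11 called lower in any comparison, and 4 of 11 higher in Sa/CD99 over all days, where 14.6% of 213 miRNAs were called higher. These 4 were miR-100, miR-10b, miR-125b and miR-22, with log2 differences of 1.51, 1.74, 1.82 and 1.15 (limma adjusted p of at most 0.0416), and in the filed samples each cell type has a slide of its own. miR-21 ranged from 8.55 to 10.98, miR-24 from 6.15 to 8.46, miR-22 from 3.29 to 5.79 and miR-31 from 3.29 to 5.46 over the 12 columns, and by the column labels limma called none of these 4 in any comparison.

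Markers of other tissues were mostly undetected. So were most miRNAs of the array, of which 133 to 229 of 851 were detected in each column. Of the haematopoietic list, which holds miR-142-3p, miR-223 and miR-451, 0 of 6 were detected in any column, of the epithelial list with the miR-200 family 0 of 7, of the endothelial list (miR-126 and miR-126*) 0 of 2, and the liver miRNA miR-122 was not detected. Of the 6 muscle miRNAs only miR-133b was detected, in 3 columns, and miR-1, miR-133a and miR-206 were not. Of the 4 neural miRNAs, miR-128 was detected in 6 columns and miR-9 in 1, and miR-124 in none.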

How the data were processed

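The authors hybridised 12 one-colour arrays and extracted spot intensities with Feature Extraction. Its version is 10.7.3.1 in the scanner files, whereas the methods name another version. The deposited intensity values carry no normalization across arrays. A deposited table from the authors holds log2 values, made per the methods with AgiMicroRna and its rma adaptation. Each column of this table followed quantile-normalized log2 total gene signal of its matching array (r of at least 0.99959). Other steps stay unknown. Column medians equal the column minimum, between -3.32 and -3.004.

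Values were used as in the table. The 219 miRNAs above the minimum in both columns of at least 1 group were fitted with limma 3.58.1 on R 4.3.3, as 6 groups with no covariate. Cell type differences at each day were called by the thresholds of the methods, 0.01 for the unadjusted p with at least 1.4-fold, and the rest at 0.05 after Benjamini-Hochberg adjustment. The fit was tested on simulated data, but the outcome is not given here and no result rests on it. The members and lists were chosen with earlier results of these data known. Named miRNAs are the members, their opposite arms, the 2 most correlated miRNAs of each, and of the stromal list those called and 4 others shown for their level. Undetected stromal miRNAs, those called only as filed and examples of the tissue lists are also named, chosen after their values were seen.

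Sa/CD99 columns are paired by clone. Deviations from group means correlated, over the 100 miRNAs detected in all columns, at 0.52, 0.46 and 0.45 between days in Sa/CD99 and 0.41, 0.63 and 0.61 in Saos-2. Over the 219 miRNAs fitted they were 0.034, 0.18 and 0.072 in Sa/CD99 and 0.18, 0.18 and 0.20 in Saos-2. Alternatives changed the labels, background correction, scaling, filter, fit, threshold and the columns used. The scanner arrays with the labels of the table, spots flagged as outliers left out, were processed by rma, normexp with an offset of 50 or 75th percentile scaling.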

Additional observations from a re-analysis of the deposited data

How the results depend on the processing

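The number of members called from day 0 to day 7 in Saos-2 was 1, miR-145. It was 0 on the scanner arrays as filed, 0 for the table values under the filed samples (chosen after seeing the data), 0 with 75th percentile scaling, 0 with centred columns and 0 in a fit of only the groups compared (limma adjusted p = 0.109), and 0 to 1 when 1 column was left out. Its log2 difference reversed to 0.68 (limma adjusted p = 0.989) on the scanner arrays as filed and to 0.29 (limma adjusted p = 1) for the table values as filed; the cause was not tested. Among all tested miRNAs, the calls from day 0 to day 7 in Saos-2 were 0 of 213 in both filed settings and 83 of 219 with 75th percentile scaling. They were 69 of 219 with centred columns and 62 of 174 with only the groups compared. A fit of only the groups compared called 74 miRNAs from day 7 to day 14 in Sa/CD99. Without a filter 3 members were called from day 0 to day 7 in Saos-2, against 700 of 851 miRNAs, and 2 in Sa/CD99, against 688. The added members were the undetected miR-143 and miR-199b-5p, whose column minima alone differ. From day 7 to day 14 in Sa/CD99 the count was 1 in a fit of only the groups compared and 0 to 1 when 1 column was left out, and at day 7 between cell types it was 0 to 1 when 1 column was left out. Where a group kept 1 column, that column was assumed to vary like the others.

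With the replicate block (consensus correlation 0.12) the paired numbers left each of the 9 counts as it was, at 1 from day 0 to day 7 in Saos-2 (miR-145, limma adjusted p = 0.0190) and 0 in the others. The remaining counts stayed at 0 in all settings run. Each group lies on 1 slide, so slide could not be fitted as a block beside the 6 groups; over days 0 and 14 alone, within slides (chosen after seeing the data), the count over all days was 0. By the column labels, the sign of uncalled member differences turned in 36 values with 1 column left out and in 41 under other settings, against 529 and 423 with the same sign and call. Under the filed samples, from the table values and the scanner arrays together, the sign turned in 47 uncalled member differences and reversed in the 2 of miR-145 given above, against 47 with the same sign and call. Detection counts were the same by the scanner flag, which the matching of arrays to columns by this flag had fixed in advance.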
